A study of Mus musculus with 20 samples.

Results

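The matrix metalloproteinases (MMPs), the ADAMTS proteases and the tissue inhibitors of metalloproteinases (TIMPs) were followed across the 4 groups of mice. Members were the probe-sets whose single annotated symbol starts with Mmp, Timp or Adamts and goes on with a digit. That rule uses no measured value, but it was chosen with earlier results of these data known. There were 70 such probe-sets among the 45101 of the array. They stood for 37 genes, of which 18 were Mmp genes, 4 Timp genes and 15 Adamts genes. Full-thickness skin from the backs of female C57BL/6 mice was measured, with 1 array per mouse and 5 mice per group. Naïve mice received neither IL-23 nor an antagonist. The mice of the other 3 groups received 3 µg of IL-23 in the skin of the back on each of days 1 to 4, and their skin was taken at the injection site on day 7. IL-23 is a cytokine that maintains Th17 cells. These 3 groups differed in what was injected under the skin at a distant site on days 4, 5 and 6. It was saline (phosphate-buffered saline in the methods), IMO-3100, an oligonucleotide antagonist of Toll-like receptors 7 and 9, or IMO-8400, an oligonucleotide antagonist of Toll-like receptors 7, 8 and 9, the antagonists at 15 mg/kg. The mice were 6 weeks old at purchase. The labels and methods describe no group with vehicle injected into the skin of the back, so the effect of IL-23 cannot be told apart from that of the intradermal injections.

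MMPs are zinc proteases that are made as inactive precursors and cut collagens, gelatin, elastin and other proteins of the extracellular matrix. TIMPs bind to the active site of MMPs and block it, and Timp3 also inhibits several ADAM and ADAMTS proteases. ADAMTS proteases are secreted enzymes that cleave proteoglycans such as aggrecan and versican or trim procollagens. In skin these enzymes are made by fibroblasts, keratinocytes and infiltrating leukocytes, and they act in hair cycling, wound repair and inflammation.

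Many of the Mmp genes that changed lie side by side on chromosome 9. Promoters were read from RefSeq (GRCm38.p6), in windows of 300 bases of which 250 precede the transcription start, and 23 of the 37 member genes had a window. The letters TGANTCA, with any base at N, are a loose form of the site bound by AP-1 (Fos and Jun) transcription factors. They were searched on both strands, on which this palindrome reads the same. They were found in 8 of 9 chromosome 9 Mmp genes with a window and in 0 of 14 other member genes with one. Over all 32851 windows the share was 7.808%, counted per window and not per gene. The chromosome 9 genes are neighbours of 1 family and so are not independent. The match read TGACTCA in Mmp13, TGAATCA in Mmp20 and TGAGTCA in the others. The first base of the match lay 35 to 95 bases before the start. Mmp12 and Mmp7 each had windows at 2 annotated starts, with a match at 1 of them. Stretches of 130 bases, 110 before the start and 20 from it, are shown 5′ to 3′ with the match in capitals, first for Mmp13, Mmp12 (the second of its 2 annotated starts), Mmp3 and Mmp10, which IL-23 up-regulated and which hold a match, then for Mmp8, which rose without one, and for Mmp1a and Mmp7, which hold one and were below 3 on every array.
Mmp13, chr9:7272404-7272533, plus strand: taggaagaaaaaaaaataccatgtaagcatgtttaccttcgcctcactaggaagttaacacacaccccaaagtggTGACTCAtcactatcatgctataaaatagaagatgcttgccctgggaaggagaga
Mmp12, chr9:7347264-7347393, plus strand: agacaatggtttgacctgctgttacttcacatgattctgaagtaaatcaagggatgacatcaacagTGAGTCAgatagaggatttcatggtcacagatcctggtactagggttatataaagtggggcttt
Mmp3, chr9:7445712-7445841, plus strand: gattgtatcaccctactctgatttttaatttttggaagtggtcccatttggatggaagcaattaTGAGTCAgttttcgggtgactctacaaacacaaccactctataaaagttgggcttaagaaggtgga
Mmp10, chr9:7502232-7502361, plus strand: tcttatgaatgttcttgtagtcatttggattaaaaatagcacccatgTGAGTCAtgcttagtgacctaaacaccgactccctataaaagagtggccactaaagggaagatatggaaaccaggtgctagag
Mmp8, chr9:7558319-7558448, plus strand: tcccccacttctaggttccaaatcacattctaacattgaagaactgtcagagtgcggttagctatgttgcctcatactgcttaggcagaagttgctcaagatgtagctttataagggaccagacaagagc
Mmp1a, chr9:7464031-7464160, plus strand: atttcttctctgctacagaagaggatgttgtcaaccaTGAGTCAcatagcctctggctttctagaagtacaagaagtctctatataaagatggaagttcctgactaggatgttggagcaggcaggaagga
Mmp7, chr9:7691980-7692109, plus strand: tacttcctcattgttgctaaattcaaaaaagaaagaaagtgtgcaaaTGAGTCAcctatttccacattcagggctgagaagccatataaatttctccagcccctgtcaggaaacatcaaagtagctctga
The motif was thus present both in genes of this cluster that were measured well above background and in genes that were not. A match of letters does not show that a factor binds there.

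Expression values are GCRMA values on the log2 scale, on which a difference of 1 is a fold change (FCH) of 2. The lowest value was 2.02, the highest 15.8, and array medians lay between 6.086 and 6.286. A group in which all 5 arrays were below 3 is called near background. No more than a minimum FCH is stated for it, computed after setting its values to 3. Calls were made on the fitted difference, also for such groups, so a called member can have a minimum FCH under 2. A probe-set was tested where it was above 2 in at least 3 arrays with a standard deviation (SD) over 0.1, and 55 of the 70 members, for 31 genes, passed. The 4 genes Mmp1a, Mmp1b, Mmp7 and Mmp20 were below 3 on all 20 arrays at every probe-set, as were Adamts6, Adamts7 and Adamts8. Basal keratinocyte markers such as Krt5 and Krt14 had list means (the mean log2 value over the genes of a list) of 12.43 to 13.16 in saline mice and 12.98 to 13.39 in naïve mice, and skeletal muscle markers of 13.39 to 13.90 and 13.50 to 14.54, so the full-thickness samples held both tissues. The naïve mice differed widely among themselves in hair follicle markers, with list means of 13.26, 11.82, 9.68, 4.92 and 3.25 in mice 1 to 5, against 2.41 to 2.79 in saline mice, 2.42 to 2.60 with IMO-3100 and 2.60 to 6.83 with IMO-8400. Naïve mouse 1 was also the lowest of its group for Mmp2, Mmp3 and Mmp9, and results that rest on it are given without it.

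IL-23 up-regulated several secreted MMPs and their inhibitor Timp1, and down-regulated Timp3, Timp4 and, at 3 of its 6 probe-sets, Timp2. Both antagonists moved most of these genes back towards the naïve level. In saline mice against naïve mice, 9 of the 55 tested members were up-regulated and 12 down-regulated (FDR under 0.05 and FCH over 2), or 16.4% and 21.8%, where the background over all tested probe-sets was 7.58% and 8.92%. The 9 were 7 Mmp probe-sets (6 genes), Timp1 and Adamts15, and the 12 were 9 Timp and 3 Adamts probe-sets. With IMO-3100 against saline, 8 members rose and 11 fell, or 14.5% and 20%, against a background of 2.69% and 3.73%. With IMO-8400 against saline, 9 rose and 9 fell, or 16.4% each, against a background of 4.46% and 3.59%. Each probe-set that rose with an antagonist was one of Timp2, Timp3 or Timp4. The comparisons share the saline arrays, so a high or low saline value enters each of them.

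The families differed in direction. The median log2 difference between saline and naïve skin was 0.35 over the 20 tested Mmp probe-sets, -1.60 over the 13 Timp probe-sets and -0.34 over the 22 Adamts probe-sets, where it was -0.039 over all tested probe-sets. With IMO-3100 against saline these medians were -0.45, 1.19 and -0.072, and with IMO-8400 they were -0.095, 1.15 and -0.014. Several probe-sets stand for 1 gene, as with 6 for Timp2 and 4 for Timp3, so these are not independent.

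**Figure D1:**
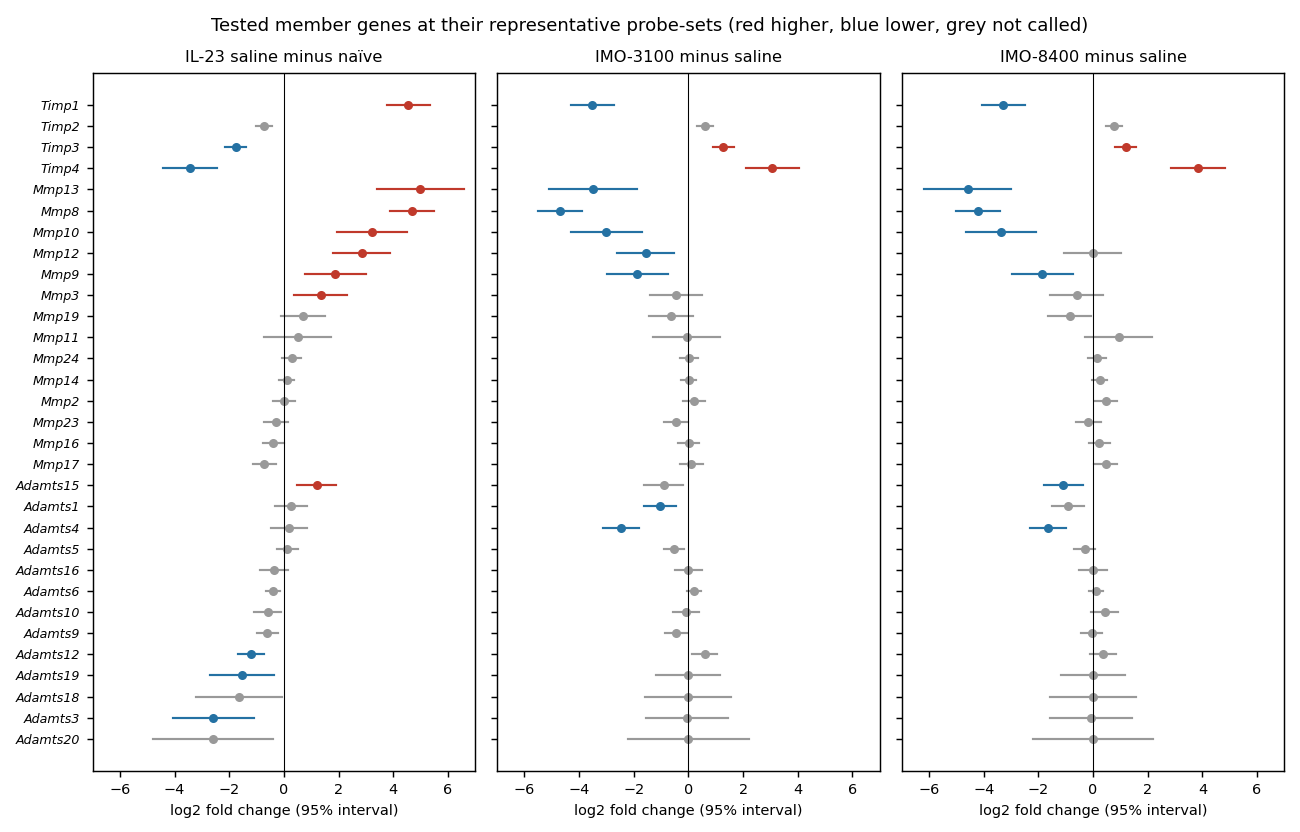
Log2 differences of the tested members in the comparisons of saline with naïve skin and of each antagonist with saline, each gene at its strongest probe-set with its 95% interval, red where called higher, blue where called lower and grey where not called. Timp1 and the inducible Mmp genes lie above 0 in the first comparison and below 0 with the antagonists, and the other Timp genes lie the opposite way. Mmp12 with IMO-8400 lies close to 0. Where a group was near background the plotted difference is a fitted one that depends on the floor of the scale.

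The collagenases Mmp13 and Mmp8 cut fibrillar collagen, and Mmp8 is known as the neutrophil collagenase. Mmp13 (1417256_at) read 2.02, 2.36, 2.42, 2.85 and 2.27 in naïve mice, 7.08, 8.76, 8.55, 5.63 and 6.87 in saline mice, 2.28, 2.85, 2.69, 7.25 and 4.33 with IMO-3100 and 2.85, 2.54, 2.35, 2.02 and 4.21 with IMO-8400. Naïve skin was near background, all 5 saline mice were above it, and with the antagonists 3 of 5 and 4 of 5 mice were below 3. With IMO-3100, mouse 4 lay inside the saline range. The rise with IL-23 was at least 20.8-fold (FDR 5.38e-05). The fitted log2 differences of IMO-3100 and IMO-8400 from saline were -3.50 (SE 0.76, FDR 0.00307) and -4.58 (SE 0.76, FDR 4.02e-04). Without mouse 4 the first of these was -4.34. These fitted sizes depend in part on the floor of the scale.

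Mmp8 (1449366_at) stood at the floor in naïve skin, with 2.02 on all 5 arrays. In saline mice it read 7.24, 7.49, 7.60, 6.28 and 4.96, with IMO-3100 it was 2.02 on all 5 arrays, and with IMO-8400 it read 3.50, 2.09, 2.73, 2.15 and 2.02. Each saline mouse was thus higher than each mouse of the other groups, and with IMO-8400 only mouse 1 was over 3. Mmp8 rose at least 13.1-fold with IL-23 (FDR 5.58e-08) and was at least 13.1-fold lower with IMO-3100 than with saline (FDR 4.18e-07). With IMO-8400 the log2 difference from saline was -4.22 (SE 0.38, FDR 1.36e-06). Among neutrophil markers, 4 of the 10 in the list were tested. Of these Csf3r, Cxcr2 and Camp rose with IL-23 (log2 differences 5.46, 4.54 and 2.73) and Ltf was near background in every group. The mean over the 4 ranged from 3.06 to 4.56 in naïve, 6.88 to 7.37 in saline, 5.29 to 5.65 in IMO-3100 and 4.85 to 6.06 in IMO-8400 mice, and 2 and 3 of them fell with IMO-3100 and IMO-8400. The part of these cells in the change of Mmp8 was not tested, and in whole skin fewer cells of a type cannot be told apart from less RNA per cell.

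The stromelysins Mmp10 and Mmp3 cleave proteoglycans, laminin and other MMP precursors. Mmp10 (1420450_at) ranged from 2.02 to 2.57 in naïve mice and read 3.35, 5.08, 8.40, 3.97 and 6.15 in saline mice. With IMO-3100 it read 2.03, 2.02, 2.02, 3.24 and 2.65, and with IMO-8400 it was 2.02 on all 5 arrays. Naïve and IMO-8400 skin were near background, and the saline mice varied widely but did not overlap with any other group. Mmp10 was up-regulated at least 5.25-fold by IL-23 (FDR 4.39e-04) and was at least 5.25-fold lower with IMO-8400 (FDR 8.32e-04). It also fell with IMO-3100, with a fitted log2 difference of -3.00 (SE 0.62, FDR 0.00215). The sizes rest in part on saline mouse 3, without which both minimum values were 3.11-fold and the difference with IMO-3100 was -2.25, each still called.

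Mmp3 (1418945_at) was already abundant without IL-23, at 9.31, 12.58, 12.56, 12.17 and 13.00 in naïve mice. Saline mice read 13.38, 13.34, 13.25, 13.10 and 13.25. Each saline mouse was above each naïve mouse, although naïve mouse 1 lay far below the others. The log2 difference was 1.34 (SE 0.45, FDR 0.0228), but without naïve mouse 1 it was 0.69, under the FCH threshold (FDR 0.00135), and in a model of the 2 groups alone the FDR was 0.117. With IMO-3100 Mmp3 read 12.81, 13.13, 12.50, 12.75 and 12.92 and with IMO-8400 12.57, 12.33, 12.72, 12.94 and 12.73. All 5 IMO-8400 mice lay below the saline mice, but neither difference passed, at -0.45 (SE 0.45, FDR 0.513) and -0.60 (SE 0.45, FDR 0.341).

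The gelatinases Mmp9 and Mmp2 cut denatured collagen and basement membrane collagen. Mmp9 (1416298_at) read 6.34, 8.73, 8.91, 8.15 and 8.72 in naïve mice and 9.37, 10.42, 10.34, 10.12 and 9.99 in saline mice. It read 8.38, 6.47, 8.66, 9.45 and 7.90 with IMO-3100 and 9.29, 8.56, 8.19, 7.88 and 7.02 with IMO-8400. Naïve mice did not overlap with saline mice, whereas mouse 4 of the IMO-3100 group lay above the lowest saline mouse. Mmp9 was 3.68-fold up-regulated by IL-23 (log2 difference 1.88, SE 0.53, FDR 0.00819). With the antagonists the log2 differences from saline were -1.88 (SE 0.53, FDR 0.0149) and -1.86 (SE 0.53, FDR 0.0148). A further probe-set (1448291_at) was called in the same directions, with 3.17 (SE 0.55, FDR 1.88e-04) for IL-23 (2.51 and still called without naïve mouse 1), -1.78 (SE 0.55, FDR 0.0236) for IMO-3100 and -1.78 (SE 0.55, FDR 0.0225) for IMO-8400. Its call with IMO-3100 was lost without mouse 3 or 5 of that group (FDR 0.0528 and 0.0559), and that with IMO-8400 without mouse 4 or 5 (FDR 0.062 and 0.0534).

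Mmp2 was abundant in each group and did not pass the test in any comparison. Its values (1439364_a_at) were 11.91, 13.04, 13.16, 12.87 and 13.14 in naïve, 12.78, 12.64, 12.56, 13.07 and 13.08 in saline, 13.29, 13.22, 12.72, 12.89 and 12.98 in IMO-3100 and 13.41, 13.23, 13.36, 13.34 and 13.21 in IMO-8400 mice. The 5 IMO-8400 mice lay above the 5 saline mice, yet the log2 difference was 0.48 (95% interval 0.078 to 0.89, FDR 0.0695). At the other probe-set (1416136_at) the groups did not overlap either, and the difference of 0.58 (FDR 0.0445) failed on FCH alone. Between saline and naïve skin the log2 difference was 0.0043 (95% interval -0.40 to 0.41). Mmp14, the membrane-bound protease that activates the Mmp2 precursor, ranged over the 20 mice from 11.03 to 11.92 (1448383_at). Its log2 differences were 0.095 for IL-23 (95% interval -0.18 to 0.37), 0.0092 for IMO-3100 (-0.27 to 0.29) and 0.24 for IMO-8400 (-0.041 to 0.51), and its other 2 probe-sets did not pass either.

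Mmp12, the macrophage elastase, was the member whose readouts with the 2 antagonists lay farthest apart. It read 5.29, 8.40, 6.80, 6.13 and 5.45 in naïve mice, 9.61, 8.78, 8.41, 9.51 and 9.98 in saline mice, 8.08, 6.73, 8.38, 7.14 and 8.13 with IMO-3100 and 9.31, 8.72, 10.08, 9.21 and 8.86 with IMO-8400 (1449153_at). Each saline mouse lay above each naïve mouse, IMO-3100 mice below the saline mice, and IMO-8400 mice within or near the saline range and above all IMO-3100 mice. IL-23 raised Mmp12 by a log2 difference of 2.84 (SE 0.50, FDR 1.95e-04). The differences from saline were -1.57 (SE 0.50, FDR 0.0263) with IMO-3100 and -0.02 with IMO-8400 (95% interval -1.06 to 1.02, FDR 0.999). The IMO-3100 call was lost without a filter on low values (FDR 0.0507), and on leaving out any of saline mice 1, 4 and 5 or IMO-3100 mice 2 and 4 (log2 differences -1.48, -1.50, -1.39, -1.32 and -1.43, FDR 0.0502 to 0.0663). Compared directly, IMO-8400 mice were higher than IMO-3100 mice by 1.54 (95% interval 0.50 to 2.59), which did not pass in the model of the 4 groups (FDR 0.084) and passed in a model of these 2 groups alone (FDR 0.0395). Of 10 macrophage markers 3 rose with IL-23, namely Marco (9.52), Cd14 (2.52) and Adgre1 (1.49), and Cd163 fell (-1.35). With either antagonist 0 of the 10 passed in limma against saline (0 and 1 had an unadjusted p under 0.05), and their list means were 13.02 to 13.48 in saline, 13.29 to 13.69 in IMO-3100 and 12.74 to 13.35 in IMO-8400 mice.

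**Figure D2:**
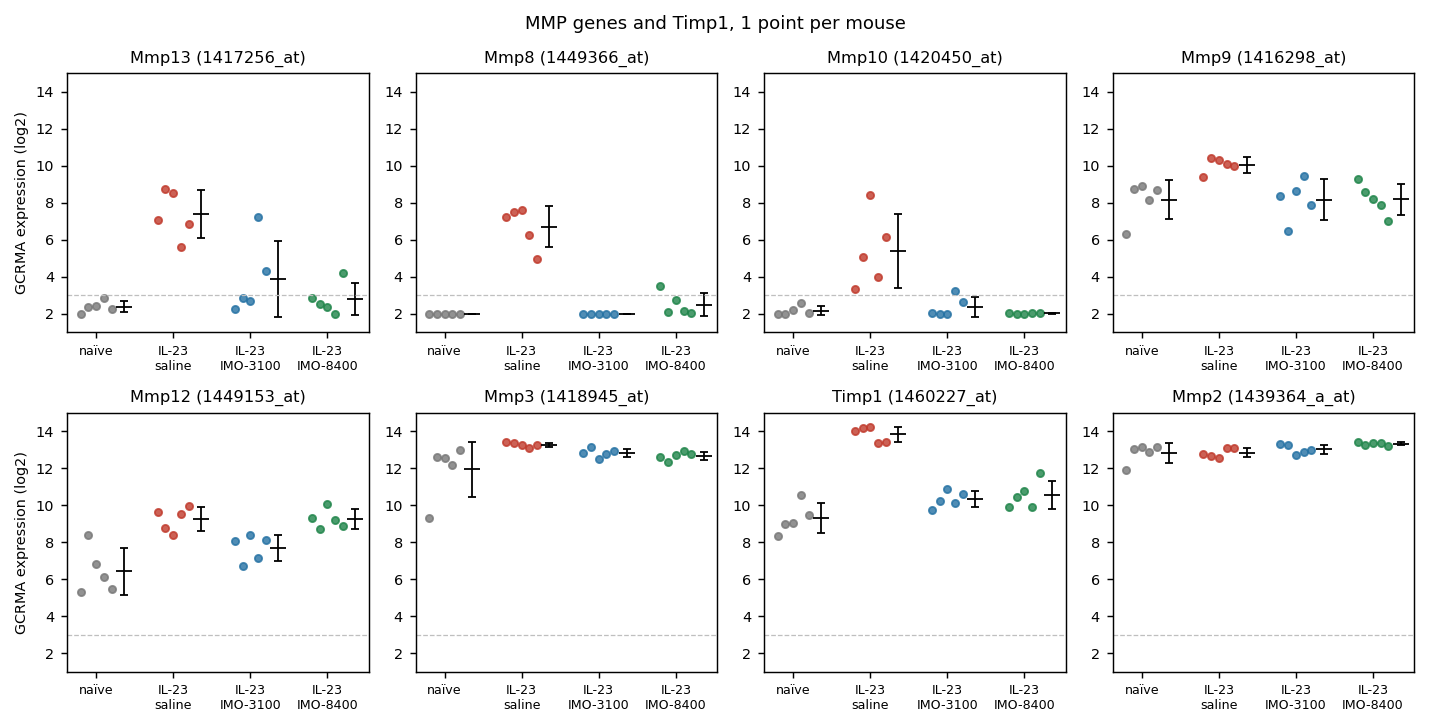
Log2 expression of 7 Mmp genes and Timp1 in the 4 groups, with a point for each mouse, a black bar for the mean and its SD, and a dashed line at 3 under which a group is near background. Mmp13, Mmp8, Mmp10 and Timp1 are high in saline mice and lower with both antagonists, Mmp12 stays near the saline level with IMO-8400, and Mmp2 lies above 11 in every mouse.

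Of the other tested Mmp genes, Mmp11, Mmp16, Mmp17, Mmp19, Mmp23 and Mmp24, none passed in limma in any of the 6 comparisons. Mmp17, a membrane-type MMP, was near background in saline mice and at least 1.2-fold lower there than in naïve skin (FDR 0.00733). Its fitted difference was also under the FCH threshold. Mmp23 (1417281_a_at) was -0.76 (SE 0.21, FDR 0.0136) against naïve skin with IMO-3100, and also under this threshold. Mmp19 had 1 strong probe-set, with means of 10.99, 11.69, 11.05 and 10.83 in naïve, saline, IMO-3100 and IMO-8400 mice, and its log2 differences from saline of -0.64 (SE 0.38, FDR 0.223) and -0.86 (SE 0.38, FDR 0.0948) did not pass.

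Among the inhibitors, Timp1 moved with the inducible MMPs and the other 3 moved against them. Timp1 (1460227_at), a secreted inhibitor that cytokines induce, read 8.34, 9.00, 9.05, 10.53 and 9.47 in naïve mice and 14.01, 14.16, 14.20, 13.34 and 13.43 in saline mice. With IMO-3100 it read 9.73, 10.23, 10.85, 10.13 and 10.61 and with IMO-8400 9.88, 10.43, 10.77, 9.91 and 11.74. Saline mice lay far above each of the other mice. Timp1 was 23.4-fold up-regulated by IL-23 (log2 difference 4.55, SE 0.38, FDR 7.44e-08) and 11.4-fold and 9.72-fold down-regulated with IMO-3100 (-3.52, SE 0.38, FDR 1.10e-05) and IMO-8400 (-3.28, SE 0.38, FDR 2.06e-05). Among members measured above background in both groups, this was the widest change with IL-23.

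Timp3, which binds to the matrix and inhibits ADAMTS proteases as well as MMPs, was down-regulated at each of its 4 probe-sets. The strongest (1449335_at) read 12.95, 12.96, 12.57, 13.29 and 12.58 in naïve, 11.28, 10.73, 10.71, 11.48 and 11.35 in saline, 12.70, 12.24, 12.66, 12.28 and 12.02 in IMO-3100 and 12.32, 12.57, 12.22, 12.36 and 12.05 in IMO-8400 mice. Saline mice did not overlap with any other group. The log2 difference was -1.76 (SE 0.18, FDR 9.65e-07) with IL-23, 1.27 (SE 0.18, FDR 1.53e-04) with IMO-3100 and 1.19 (SE 0.18, FDR 2.15e-04) with IMO-8400. At 1419088_at the same comparisons gave -3.32 (SE 0.34, FDR 8.42e-07), 2.22 (SE 0.34, FDR 2.50e-04) and 2.23 (SE 0.34, FDR 2.08e-04), and the remaining 2 probe-sets gave -1.82 and -2.01 with IL-23. Probe-sets of 1 gene differ in target sequence, and their levels are not set against each other here.

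Timp4, an inhibitor found mainly in heart, muscle and fat, also fell. Its values (1423405_at) were 7.19, 7.81, 7.41, 7.77 and 7.26 in naïve mice, 4.10, 2.91, 3.10, 5.48 and 4.74 in saline mice, 7.07, 7.82, 7.08, 6.58 and 7.10 with IMO-3100 and 8.98, 8.88, 7.54, 7.57 and 6.59 with IMO-8400. All 5 saline mice lay below the mice of the other groups, and saline mouse 2 was under 3. Timp4 was 10.7-fold lower with IL-23 (log2 difference -3.43, SE 0.47, FDR 1.86e-05) and rose by 3.07 (SE 0.47, FDR 2.53e-04) with IMO-3100 and 3.85 (SE 0.47, FDR 3.52e-05) with IMO-8400. The weaker probe-set (1450974_at) gave -1.81, 1.58 and 2.46, and its rise with IMO-3100 did not pass when values under 4 were set to 4 (0.94, FDR 0.0592). Adipocyte markers moved with it, as 5 of 6 tested fell with IL-23, among them Lep (-3.75), Cidec (-2.57) and Adipoq (-1.77), and 3 of 6 rose with each antagonist. Their list means ran from 12.34 to 12.76 in naïve, 10.13 to 11.19 in saline, 11.31 to 11.83 in IMO-3100 and 11.60 to 11.91 in IMO-8400 mice, with none of the 6 near background in any group. Of 10 skeletal muscle markers 1 fell with IL-23 (Myh4, -1.28), 0 rose with IMO-3100 and 2 rose with IMO-8400 (Myh4, 1.27, and Actn3, 1.08), while 7, 5 and 9 had an unadjusted p under 0.05 in limma. Their list means were 13.83 to 14.21 with IMO-3100 and 14.15 to 14.45 with IMO-8400, against 13.39 to 13.90 in saline mice. The part of fat or muscle in the change of Timp4 was not tested.

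Timp2, which inhibits MMPs and also takes part in activating the Mmp2 precursor, had 6 probe-sets that differed in size of change. The strongest (1454677_at) read 13.48, 14.00, 14.05, 14.04 and 14.22 in naïve, 13.32, 13.14, 12.83, 13.37 and 13.52 in saline, 14.12, 13.87, 13.76, 13.70 and 13.69 in IMO-3100 and 14.01, 14.06, 14.12, 13.92 and 13.93 in IMO-8400 mice. The antagonist groups did not overlap with saline mice, while naïve mouse 1 lay within the saline range. Its differences of -0.72 (SE 0.14, FDR 4.31e-04), 0.59 (SE 0.14, FDR 0.00478) and 0.77 (SE 0.14, FDR 6.90e-04) had a FDR under the threshold but a FCH under 2. The probe-sets 1420924_at, 1450040_at and 1437081_at passed with IL-23, at -1.60, -1.16 and -1.41. With IMO-3100 the first of these 3 gave 1.19 (SE 0.25, FDR 0.00254) and the second 1.10 (SE 0.22, FDR 0.00202), and both were called. All 3 were called with IMO-8400, at 1.45, 1.12 and 1.13. The calls of 1450040_at with both antagonists were lost without saline mouse 3 (log2 differences 0.96 and 0.98), and that with IMO-3100 also without IMO-3100 mouse 1 (0.99). At 1433662_s_at the difference with IL-23 was -0.90, and -1.07 and called without naïve mouse 1, and that with IMO-8400 was 0.97, and called without saline mouse 1, 4 or 5 (up to 1.04). At 1460287_at the differences were -0.24, 0.18 and 0.24 and not called.

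**Figure D3:**
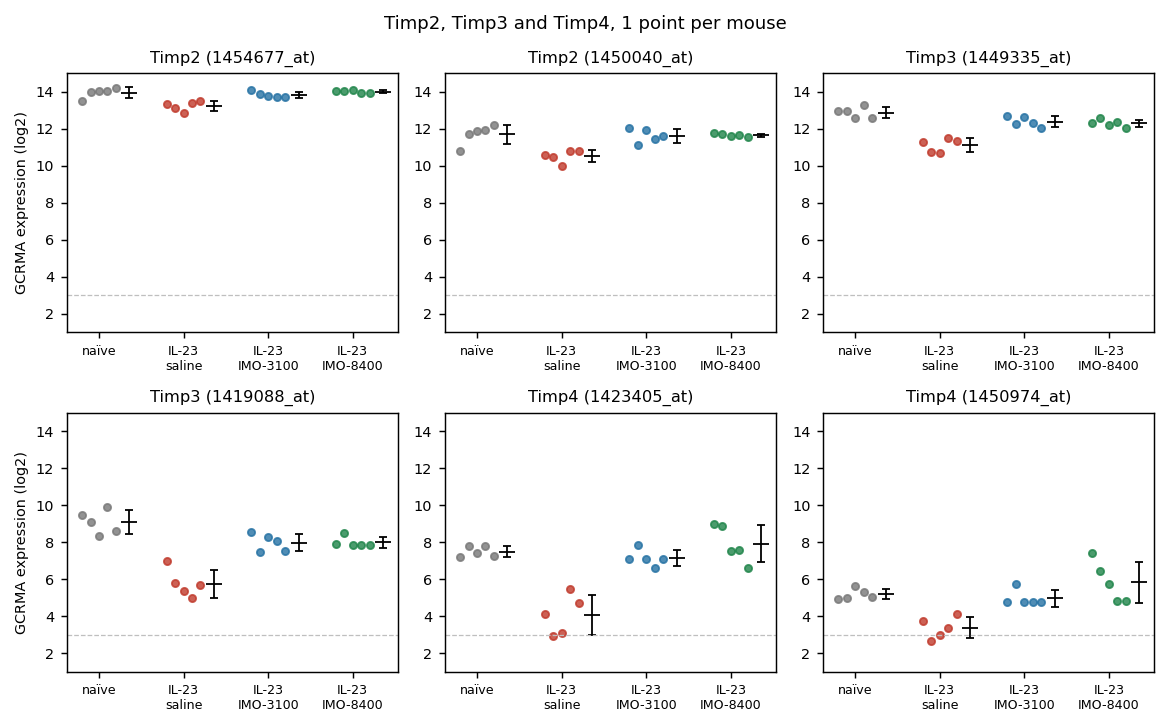
Log2 expression of Timp2, Timp3 and Timp4 at a pair of probe-sets each, with a point for each mouse, a black bar for the mean and its SD, and a dashed line at 3. Saline mice are the lowest group in each panel, and the means of both antagonist groups lie above the saline mean.

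Adamts4, an aggrecanase that also cleaves versican, did not pass the test with IL-23 and fell with both antagonists to below the naïve level. At 1452595_at it read 9.48, 9.39, 8.64, 10.39 and 9.35 in naïve and 9.01, 9.69, 10.03, 9.20 and 10.24 in saline mice. It read 7.25, 7.14, 7.12, 6.46 and 7.80 with IMO-3100 and 8.11, 7.49, 8.49, 7.49 and 8.35 with IMO-8400. Each antagonist-treated mouse lay below each naïve and each saline mouse. The log2 difference was 0.19 with IL-23 (95% interval -0.48 to 0.85, FDR 0.656), -2.48 (SE 0.32, FDR 6.06e-05) with IMO-3100 and -1.65 (SE 0.32, FDR 0.00114) with IMO-8400. Against naïve skin it was -2.30 (SE 0.32, FDR 6.27e-05) with IMO-3100 and -1.47 (SE 0.32, FDR 0.00428) with IMO-8400. The other probe-set (1455965_at) gave 0.41 with IL-23, -3.11 (SE 0.38, FDR 4.27e-05) and -2.33 (SE 0.38, FDR 3.52e-04) against saline and -2.71 (SE 0.38, FDR 7.62e-05) and -1.93 (SE 0.38, FDR 0.00232) against naïve skin.

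Adamts1, Adamts9 and Adamts15 also cleave versican. Adamts15 (1427056_at) read 8.61, 9.51, 9.40, 11.22 and 9.97 in naïve, 10.98, 10.89, 10.74, 11.09 and 11.05 in saline, 9.59, 9.92, 10.64, 9.81 and 10.23 in IMO-3100 and 10.10, 9.78, 9.94, 9.17 and 10.35 in IMO-8400 mice. Saline mice were tightly grouped, above the antagonist-treated mice and above each naïve mouse but mouse 4. The rise with IL-23 was 1.21 (SE 0.34, FDR 0.00796), and 0.92 without naïve mouse 1, under the FCH threshold. With IMO-8400 it fell, with a log2 difference from saline of -1.08 (SE 0.34, FDR 0.0241), a call lost without IMO-8400 mouse 2 (FDR 0.0508) or mouse 4 (FDR 0.0693). With IMO-3100 the difference was -0.91 (SE 0.34, FDR 0.0556), which passed without IMO-3100 mouse 3 (-1.06, FDR 0.0458).

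Adamts1 (1450716_at) read 10.31, 9.86, 9.57, 11.75 and 10.38 in naïve, 10.57, 10.46, 10.85, 10.29 and 11.04 in saline, 9.93, 9.71, 9.39, 9.54 and 9.42 in IMO-3100 and 9.62, 9.81, 9.89, 9.50 and 9.87 in IMO-8400 mice. Both antagonist groups lay below the saline mice without overlap. The difference was -1.04 (SE 0.28, FDR 0.0111) with IMO-3100 and -0.90 (SE 0.28, FDR 0.0226) with IMO-8400, so that the first lay just over a FCH of 2 and the second just under it. The first fell under it without saline mouse 3 or 5 or IMO-3100 mouse 3 or 5 (log2 differences -0.99, -0.94, -0.99 and -1.00), after quantile normalization (-0.99) and with a common 75th percentile (-1.00).

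Adamts9 was lowest with IMO-3100. At 1437785_at it read 10.02, 9.29, 8.95, 9.25 and 9.03 in naïve, 8.07, 8.90, 9.01, 8.65 and 8.85 in saline, 8.28, 8.33, 8.26, 7.99 and 8.33 in IMO-3100 and 8.90, 8.50, 8.63, 8.60 and 8.62 in IMO-8400 mice. IMO-3100 mice lay below all naïve and all IMO-8400 mice. Against naïve skin the difference with IMO-3100 was -1.07 (SE 0.19, FDR 4.63e-04), and -0.89 without naïve mouse 1, under the FCH threshold. Against saline the difference with IMO-3100 at 1437785_at was -0.46 (SE 0.19, FDR 0.0737) and did not pass. Saline mice differed there from naïve mice by -0.61 (SE 0.19, FDR 0.0122), under the FCH threshold. At the weaker 1430352_at the fall with IMO-3100 was -1.12 (SE 0.33, FDR 0.0182) against saline and -1.44 (SE 0.33, FDR 0.00393) against naïve skin. The first of these was lost without IMO-3100 mouse 4 (FDR 0.0561) or without saline mouse 2 or 3 (FDR 0.0514 and 0.0588), and in a model of the 2 groups alone (FDR 0.0538).

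Adamts12, a protease of cartilage oligomeric matrix protein, fell with IL-23. At 1439827_at it read 9.97, 10.04, 10.41, 10.08 and 11.29 in naïve, 9.38, 8.63, 8.74, 9.41 and 9.58 in saline, 9.67, 9.83, 9.65, 9.58 and 9.95 in IMO-3100 and 9.33, 9.29, 9.65, 9.63 and 9.67 in IMO-8400 mice. Saline mice lay below all naïve mice. The difference was -1.21 (SE 0.22, FDR 3.21e-04), and -0.98 without naïve mouse 5, under the FCH threshold. The differences with the antagonists, 0.59 and 0.37, did not pass.

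Some ADAMTS genes were above background in some of the naïve mice. Adamts3, a procollagen N-propeptidase, read 8.21, 5.53, 2.12, 4.93 and 2.87 in naïve mice (1441693_at) and was near background in each of the 3 IL-23 groups. Adamts19 (1442459_at) read 2.41, 2.38, 2.02, 6.35 and 4.68 and was near background in the same groups. A similar spread was seen with 9.60, 7.13, 2.23, 2.02 and 2.02 for Adamts20 (1456901_at) and 7.87, 4.26, 2.03, 2.02 and 2.13 for Adamts18 (1437574_at), which did not pass. With IL-23 Adamts3 was at least 3.33-fold lower (FDR 0.00689) and Adamts19 at least 1.48-fold (FDR 0.0324), both called on the fitted difference. The minimum for Adamts3 was 1.82-fold without naïve mouse 1 and 5.23-fold without naïve mouse 3. In a model of the 2 groups alone neither passed (FDR 0.0678 and 0.149), and Adamts19 was also lost without a filter (FDR 0.062), with values under 4 set to 4 (FDR 0.109) and on leaving out naïve mouse 4 or 5 or any saline mouse but mouse 4 (FDR 0.0518 to 0.0868). For Adamts20, Adamts18 and Adamts3 the highest reading was in naïve mouse 1, which also had the highest hair follicle markers, and all 9 tested hair follicle markers fell with IL-23, with 7 of them near background in saline mice, among them Krt25, and a fitted log2 difference of -7.41 for Krt27. The highest readings of Adamts19 were in naïve mice 4 and 5. The part of hair follicles in these differences was not tested.

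**Figure D4:**
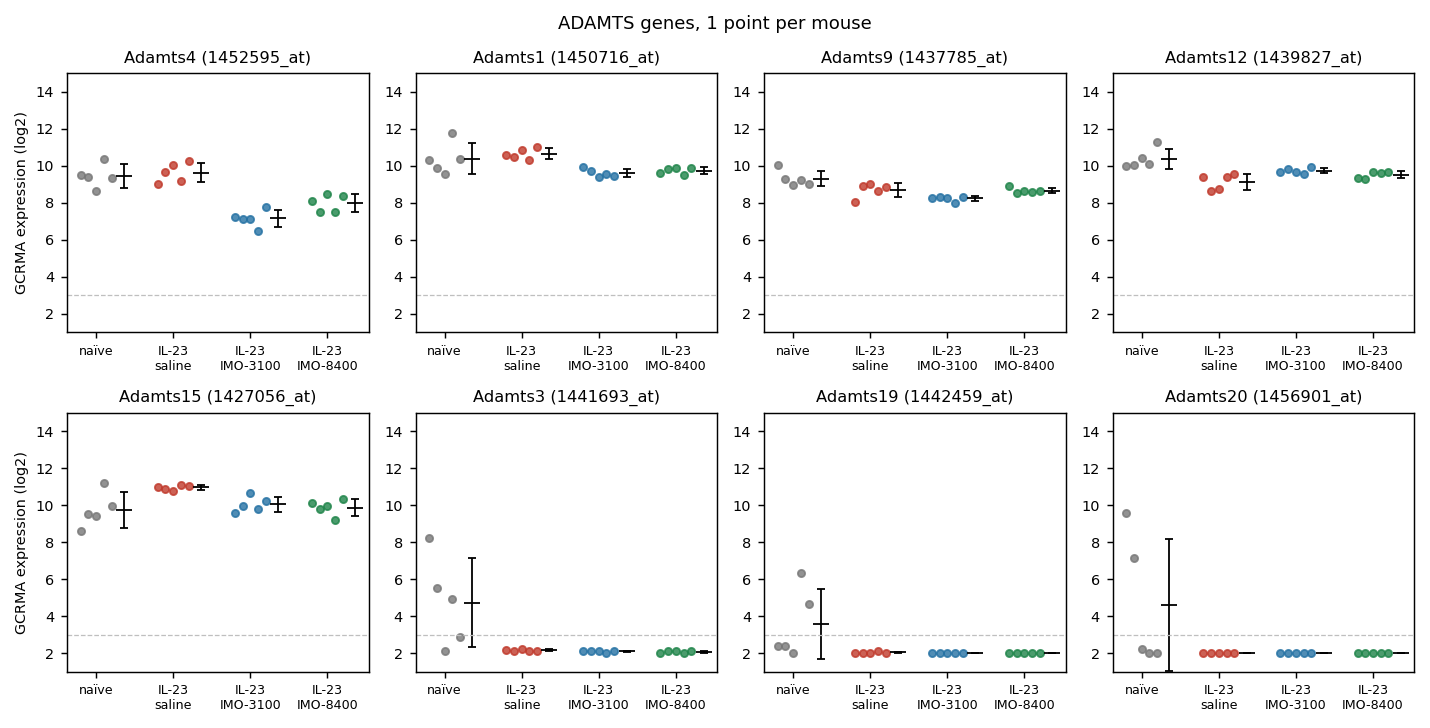
Log2 expression of 8 Adamts genes in the 4 groups, with a point for each mouse, a black bar for the mean and its SD, and a dashed line at 3. Adamts4 is lower with both antagonists than in naïve or saline mice, and Adamts3, Adamts19 and Adamts20 spread widely among naïve mice and lie under 3 in all others.

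The remaining tested ADAMTS genes were Adamts5, Adamts6, Adamts10 and Adamts16, and none passed in limma in any comparison. Adamts5, the other main aggrecanase, had its lowest FDR at 1450658_at with IMO-3100, where the log2 difference from saline was -0.78 (SE 0.21, FDR 0.0111). Its strongest probe-set (1422561_at) had means of 11.87 in naïve, 11.99 in saline, 11.46 in IMO-3100 and 11.69 in IMO-8400 mice. Adamts10, known for its role in microfibril assembly, differed by -0.60 (SE 0.23, FDR 0.0392) with IL-23.

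The 2 antagonists, which differ in their stated action on Toll-like receptor 8 and were given at the same dose and days, were compared directly at each of the 55 tested members. In limma 0 passed, against a background of 0.578% in either direction, and 5 had an unadjusted p under 0.05. In a model of the 2 groups alone 1 passed, Mmp12, described above. The next widest fitted difference was that of Mmp13, below 3 in most mice of both groups, at -1.09 (95% interval -2.68 to 0.51). For Timp1 the interval ran from -0.55 to 1.03, for Timp3 (1449335_at) from -0.46 to 0.30, for Timp4 (1423405_at) from -0.20 to 1.76 and for Mmp9 (1416298_at) from -1.10 to 1.13. Adamts4 (1452595_at) was 0.83 higher with IMO-8400 (95% interval 0.17 to 1.50, FDR 0.136). A difference that did not pass is not shown to be absent, and several of these intervals reach past a FCH of 2.

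Against naïve skin, 1 member was higher and 7 lower with IMO-3100, or 1.82% and 12.7%, against a background of 4.9% and 4.55%. With IMO-8400 it was 2 higher and 4 lower, or 3.64% and 7.27%, against 3.6% and 2.43%. The share of higher members was thus below the background with IMO-3100 and near it with IMO-8400. Timp1 was the higher member in both, at 1.03 (SE 0.38, FDR 0.049) and 1.27 (SE 0.38, FDR 0.0271). These calls were lost without naïve mouse 1 (log2 differences 0.80 and 1.03, FDR 0.117 and 0.0597), without naïve mouse 2 (FDR 0.0981 and 0.0606), without several other mice, without a filter (FDR 0.0886 and 0.0521) and in models of the 2 groups alone (FDR 0.0935 and 0.114). Mmp12 was the other with IMO-8400, at 2.82 (SE 0.50, FDR 9.06e-04). Lower with both were Timp3 at 1419088_at, with -1.10 (SE 0.34, FDR 0.0218) and -1.09 (SE 0.34, FDR 0.0329), Adamts4 at both probe-sets and Adamts3, which was at least 3.33-fold lower with IMO-3100 and at least 3.33-fold lower with IMO-8400. Without naïve mouse 1 both minimum values for Adamts3 were 1.82-fold, and its calls were lost with values under 4 set to 4 (FDR 0.0573 and 0.076) and in models of the 2 groups alone (FDR 0.0973 and 0.122). The Timp3 calls did not hold without naïve mouse 4 (FDR 0.0583 and 0.0838) or several other mice, nor that with IMO-8400 without a filter (FDR 0.0616). Adamts9 at 2 probe-sets and Adamts19 were lower with IMO-3100, the latter without a call in several alternatives. Mmp8, Mmp10, Mmp13 and Mmp9 did not pass against naïve skin with either antagonist, although Mmp9 at 1448291_at passed with both without naïve mouse 3 (1.67 and 1.67). Mmp12 with IMO-3100 differed from naïve skin by 1.28 (SE 0.50, FDR 0.063), and passed without naïve mouse 2 (1.77) or IMO-3100 mouse 2 (1.52).

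Other genes of matrix turnover were counted from lists, each gene at its probe-set with the highest mean. Of 6 tested ADAMTS-like proteins, secreted relatives without protease activity, 4 fell with IL-23, namely Adamtsl3 (-2.08), Adamtsl4 (-1.75), Adamtsl5 (-1.46) and Adamtsl2, near background in saline mice (at least 1.24-fold lower). The first 3 rose with IMO-3100 (1.95, 1.26 and 1.05) and with IMO-8400 (2.10, 1.41 and 1.35). The median over the list was -1.36 with IL-23. Of 9 MMP regulators outside the TIMP family, 2 fell with IL-23, namely Spock2, a testican (-3.57), and Reck, a membrane-anchored MMP inhibitor (-1.30). Spock2 rose with both antagonists (3.19 and 4.08), and Tfpi2 fell (-1.30 and -2.11). Of 5 tested genes of plasminogen activation, which feeds MMP activation, Plaur, the urokinase receptor, rose with IL-23 (1.89), and 0 of 5 passed with either antagonist in limma (1 and 1 at an unadjusted p under 0.05). Of 21 matrix substrates 1 rose with IL-23, tenascin C (Tnc, 3.55), and it fell with IMO-3100 (-3.55) and IMO-8400 (-2.49). Fmod, the collagen-binding fibromodulin, and the laminin Lama5 fell with IL-23 (-2.53 and -1.06).

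Of the cells that could carry these transcripts, fibroblast markers had 0 of 10 passing in limma with IL-23 or either antagonist (5, 1 and 2 at an unadjusted p under 0.05), with list means of 12.64 to 13.43 in naïve and 12.85 to 13.13 in saline mice. Activated keratinocyte markers rose with IL-23 in 4 of 5, among them Krt6b (8.06) and Krt16 (3.58), and 2 of 5 fell with each antagonist. With IL-23 T cell markers rose in 5 of 6 and mast cell markers in 3 of 6, and smooth muscle and pericyte markers fell in 4 of 8. Against saline, T cell markers fell in 3 of 6 with IMO-3100 and 2 with IMO-8400, and mast cell markers in 1 with each. Smooth muscle and pericyte markers rose in 0 of 8 with IMO-3100 and 2 with IMO-8400. Compared directly, 1 of these 8 was higher with IMO-8400 than with IMO-3100 (7 at an unadjusted p under 0.05 in limma). Of 8 endothelial markers 0 passed with IL-23 in limma (3 at an unadjusted p under 0.05). Against saline 0 of 8 passed in limma with either antagonist (6 with IMO-3100 and 2 with IMO-8400 at an unadjusted p under 0.05). Their median log2 differences were -0.42 and 0.16. Compared directly, 0 of 8 passed in limma (4 at an unadjusted p under 0.05). With IMO-3100, 1 of 8 was lower than in naïve skin. The part of all these cells in the changes of the proteases and inhibitors was not tested.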

How the data were processed

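Total RNA from full-thickness skin of 20 mice was hybridised to Affymetrix mouse4302 arrays, 1 array per mouse. The authors computed log2 expression with GCRMA (its version is not stated in the paper or labels) and deposited these log2 values, which were taken as they are. GCRMA gives probe-sets without signal the same low value, so low values have no order and the table holds no detection calls. Groups came from the sample labels. The labels number no replicates within a group, and mice are numbered 1 to 5 in record order as names only. The series record speaks of 2 doses of 1 antagonist, whereas the labels and the methods give 2 antagonists.

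Probe-sets were named by the platform annotation (34958 with 1 symbol, 932 with several, 9211 with none). All 70 members were matched by Entrez identifier and 0 symbols changed. Following the study's methods, the 30960 probe-sets exceeding 2 on 3 arrays or more, with an SD of more than 0.1, entered the test. All arrays entered 1 limma model (version 3.58.1, lmFit and eBayes, R 4.3.3) of 4 group means. FDR is the Benjamini-Hochberg adjusted p over all tested probe-sets, and a call needed both FDR below 0.05 and a fitted FCH above 2. limma's 95% intervals are given. The fit was tested on simulated data. The number of arrays limits the precision. Full values are given for genes called in at least 1 of 6 comparisons and for Mmp2, Mmp9, Mmp14 and Timp1 to Timp3. Up to 4 called genes per list and comparison are named, and any gene outside this rule was picked with its values in view. The members, lists, tests and alternatives were chosen with earlier results of these data known. Protein sequences were not analysed here. Alternatives were no filter, a stricter filter (5 arrays or more above 4), a floor of 4 on all values, quantile normalization, a common 75th percentile, a trended and robust prior, the 2 groups compared alone, and leaving out naïve mice 1 and 2 or each mouse in turn.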

Additional observations from a re-analysis of the deposited data

Results flagged for a closer look

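In 3 of the 65 groups of 5 mice examined (the representative probe-sets of genes with full values), 1 mouse lay far from the other 4 by Dixon's ratio of its gap to the range of the group (critical value 0.71). Chance gives about 1 such group in 20. Mmp3 read 9.31 in naïve mouse 1, where the nearest other naïve mouse read 12.17. Mmp2 (1439364_a_at) read 11.91 in the same mouse, with the nearest at 12.87. Adamts9 (1437785_at) read 7.99 in IMO-3100 mouse 4, with the nearest at 8.26.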

How the results depend on the processing

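Over the named probe-sets, 1415 values under the other settings kept their call or stayed without one, 23 lost a call and 2 gained one, and 0 changed sign while called. Values that stayed without a call were not checked for direction. On leaving out mice the numbers were 2117, 67 and 18. Probe-sets that a setting dropped from the test are not in these numbers. Mmp10, Adamts3 and Adamts19 did not meet the stricter filter, so their calls were not tested there. The single member higher with IMO-3100 than in naïve skin, Timp1, gave a count of 0 without a filter and with the 2 groups alone. The 2 members higher with IMO-8400 than in naïve skin became 1 without a filter, with the 2 groups alone and without naïve mice 1 and 2. For IMO-8400 against IMO-3100 the count of higher members went from 0 to 1 with the 2 groups alone. On leaving out each mouse in turn, the counts of higher and lower members ran from 7 to 10 and 11 to 14 for saline against naïve, 7 to 8 and 9 to 11 for IMO-3100 against saline, 8 to 10 and 7 to 9 for IMO-8400 against saline, 0 to 1 and 5 to 8 for IMO-3100 against naïve, and 1 to 3 and 3 to 7 for IMO-8400 against naïve. Without naïve mouse 3 the last of these was 7, where it was 4 with all mice. The causes were not tested. No paired analysis was possible because the labels give no replicate number shared between groups. For genes near the floor of the scale, fitted sizes depend on that floor.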

Other observations

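Among 8 tested ADAM membrane proteases, the membrane-bound relatives of the ADAMTS family, Adam8 rose with IL-23 (1.87) and Adam33 fell (-2.13). Adam33 rose with IMO-3100 (1.79) and IMO-8400 (1.88), and Adam12 fell with both (-1.56 and -1.57). Adam8 did not pass against saline with either antagonist and was above naïve skin with both (1.17 and 1.32).

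Of the basement membrane genes in the list of matrix substrates, Nid2 was below naïve skin with IMO-3100 (-2.01) and IMO-8400 (-1.84), as was the type IV collagen chain Col4a2 (-1.22 and -1.01). Col4a1 passed with IMO-3100 (-1.06). In all 5 of 21 tested substrates were below naïve skin with IMO-3100 and 2 with IMO-8400. Vcan, which encodes the proteoglycan versican, fell with IMO-8400 against saline (-1.28), and Comp and Fmod rose (1.35 and 1.93). Against saline, 2 of the 21 substrates fell and 0 rose with IMO-3100, and 2 fell and 2 rose with IMO-8400. Not each of these is named here.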
